A study of Homo sapiens with 114 samples.

Results

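CXCL8, CXCL1, CXCL2, CXCL3, CXCL5, CCL2, CCL20, IL6, IL11 and LIF encode secreted inflammatory chemokines and cytokines, and here they were followed across every group of an array study of a human kidney cell line. They were taken by symbol, as a list of 10 of the 19775 genes on the array, by a rule that uses no measured value, although earlier results of these data were known when the list was made. All 10 were in the table, through 16 probe sets (sets of short probes that together measure 1 transcript) that carry 1 gene symbol each. HK-2 cells, an immortalized line from human renal proximal tubular epithelium, were exposed to 9 compounds, and total RNA was measured on 114 Affymetrix arrays. The arrays form 26 treated groups and 12 control groups of 3 biological replicates each. Compound names stay abbreviated as in the labels, which grade a dose as high or low and give no amount. The cells took Aa, Nnm or Kbr for 24 and 48 h and Ota for 24 and 72 h, each of these 4 compounds at either dose. CdCl, Di, CsA, Fk and Ra were given at 1 dose for 12 and 48 h. Every treated group was set against vehicle cultures of the same time, and Nnm shared these controls with Kbr, CdCl with Di, and Fk with Ra. Treated and control cultures alike grew near confluence in a DMEM and Ham's F12 mixture with EGF, insulin, transferrin, selenite and hydrocortisone, a glucocorticoid. The arrays of CsA and its controls carry the additional label of laboratory 3. All groups come from 1 immortalized line.

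Chemokines are small secreted proteins that draw leukocytes along a gradient. CXC chemokines such as the CXCL8 protein (interleukin 8) act mainly on neutrophils, CCL2 on monocytes, and CCL20 on lymphocytes and dendritic cells that carry CCR6. IL6, IL11 and LIF belong to the IL6 family, whose receptors all signal through the shared subunit gp130, encoded by IL6ST. Injured tubular epithelium is a known source of several of these factors in the kidney. Many of the genes are known targets of the transcription factor NF-kappaB, and several of their mRNAs carry AU-rich elements that shorten their life.

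The stretch just before the start site is shown for 5 of the genes, because IL6 and IL11 had the largest rises, CXCL8 and CXCL2 moved in both directions, and CXCL1 was at background beside its close relative CXCL2. The sequences are 150 bases long, come from RefSeq on GRCh38.p14, end at the base before the annotated start site, and are written on the strand of the gene. Capitals mark matches, on either strand, to GGNNTTTCC (a kappaB-type motif, the letters bound by NF-kappaB dimers) and to TGANTCA (an AP-1 motif), which do not overlap in these windows. They lie at chr7:22727050-22727199 (plus strand, IL6), chr19:55370464-55370613 (minus strand, IL11), chr4:73740419-73740568 (plus strand, CXCL8), chr4:74099196-74099345 (minus strand, CXCL2) and chr4:73869243-73869392 (plus strand, CXCL1).
IL6: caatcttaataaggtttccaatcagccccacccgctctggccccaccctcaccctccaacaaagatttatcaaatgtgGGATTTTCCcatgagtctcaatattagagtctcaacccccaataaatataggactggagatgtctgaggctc
IL11: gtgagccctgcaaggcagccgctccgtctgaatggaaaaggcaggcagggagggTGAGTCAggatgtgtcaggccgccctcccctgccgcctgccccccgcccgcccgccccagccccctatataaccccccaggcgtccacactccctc
CXCL8: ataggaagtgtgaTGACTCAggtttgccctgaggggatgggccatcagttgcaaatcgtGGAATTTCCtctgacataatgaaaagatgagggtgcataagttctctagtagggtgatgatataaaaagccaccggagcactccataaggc
CXCL2: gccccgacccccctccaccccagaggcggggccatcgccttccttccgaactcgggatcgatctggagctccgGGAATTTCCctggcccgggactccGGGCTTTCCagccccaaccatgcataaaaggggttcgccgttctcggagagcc
CXCL1: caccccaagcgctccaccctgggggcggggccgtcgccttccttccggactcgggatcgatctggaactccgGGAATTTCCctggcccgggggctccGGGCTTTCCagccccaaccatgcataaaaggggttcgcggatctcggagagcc
CXCL2 and CXCL1 each hold a pair of kappaB-type matches with the same letters. CXCL8 holds 1 kappaB-type match that begins at base -91 and 1 AP-1 match that begins at base -137, counted from the start site. IL6 holds 1 kappaB-type match at -72, while the window of IL11 holds no kappaB-type match and 1 AP-1 match at -96. Of the 8 genes for which a promoter was read, 7 hold a kappaB-type match, against 6.26% of 35116 RefSeq promoters of 300 bases (AP-1 is in 7.71% of them). TTGCNNAA (a C/EBP-type motif, in 10.5% of all promoters) and TATAAA (in 11.5%) were also searched on either strand and are not marked. These motifs were searched knowing that such sites are described for several of these genes, and a match is a description and not a site in use. The promoters of CCL2 and LIF were not used here.

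Values are log2 signals after GCRMA, a background correction and normalization for these arrays, so 1 unit is a 2-fold difference and a probe set with no signal lies near 2 to 3. The upper quartile of all probe sets ran from 6.09 on an array of Ra 48 h to 7.18 on an array of Ota low 72 h. Treated arrays lay below all their controls in Ota high, Kbr high, CdCl 12 h and Di 48 h. They lay above them in Ota low 72 h and Nnm low 48 h. In Ota high 24 h the upper quartile averaged 6.49, against 7.04 in controls. In Ota high 72 h the difference between 3′ and 5′ probe sets of ACTB was 1.66 to 2.30 in treated cultures and 1.16 to 1.51 in controls. In Di 12 h it was 1.23 to 1.55 in treated cultures and 1.82 to 2.09 in controls. The part of these differences in the results was not tested. PAX8, CDH6, KRT8, KRT18, KRT19 and VIM were above log2 4 on all 114 arrays. The differentiated tubule genes ANPEP, AQP1, LRP2, CUBN and PAX2 were above it on none, and GGT1 on 5. Of 10 leukocyte markers 8 were in the table, none had a median above 4, and only ITGAM passed it, on 2 arrays. Of 7 fibroblast markers, COL1A1, DCN and LUM were above 4 on all arrays. COL1A2 was above it on 2 arrays, COL3A1 on 1, and PDGFRA and PDGFRB on none.

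Some arrays stood apart from their own group. On the median array 0.595% of the group's genes lay 2-fold or more from the group median, and on 9 arrays this share was over 5%. The highest were Ra 48 h replicate 2 (18.7%), Nnm high 24 h replicate 2 (15.1%), Fk 12 h replicate 3 (14.8%), Nnm high 48 h replicate 2 (10.4%) and Ota high 24 h replicate 2 (10.2%). The others were the 4 arrays numbered 3 of CsA and its controls, at 6.28% to 9.71%. Every value below includes these arrays unless it says otherwise. Calls that changed without all 9, an alternative chosen after seeing the data, are named with Nnm, Kbr and Ra.

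A gene is called higher or lower where limma's moderated test passed a Benjamini-Hochberg adjusted p of 0.05 over all genes of the comparison. The standard error (±) comes from all arrays that share the same controls. A gene was tested where it exceeded log2 4 on at least 3 of those arrays, which held for 8 of the 10 members in the Aa, Ota, Nnm with Kbr, CdCl with Di and CsA arrays. With Fk and Ra 7 were tested, since CCL2 was at background there. CXCL1 and IL11 were not tested. Over the 26 treated groups, 29 of 204 member tests were called higher and 19 lower, which is 14.2% and 9.31%. Over all genes tested in the same comparisons these shares were 11.8% and 15.1%. The calls fell in 15 treated groups, and 11 groups had none. In RNA from whole cultures, fewer cells with a transcript and less of it per cell cannot be told apart.

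**Figure D1:**
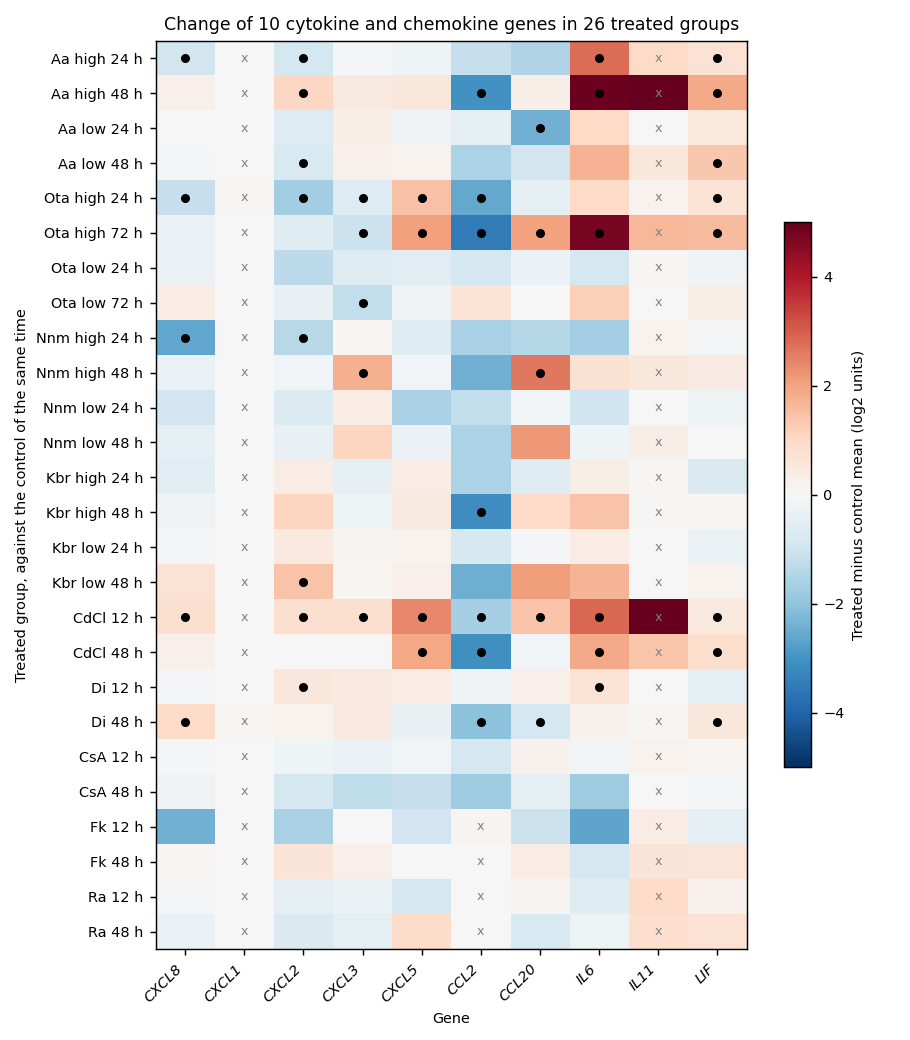
Difference of group means (treated minus control, log2 units, 3 arrays each) for the 10 genes (columns, IL11 by its second probe set) in the 26 treated groups (rows). Black dots mark called changes, crosses mark changes given with no test, and colours stop at 5 units, which IL11 passed in Aa high 48 h (5.86) and CdCl 12 h (5.11). The CCL2 column is blue where it is called and the IL6 and LIF columns are red where they are called.

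CdCl at 12 h moved the most members: 7 of 8 were higher and 1, CCL2, was lower, where 14.5% of all genes were called higher and 34.3% lower. The median change of the members was 0.81 there, against -0.17 over all genes tested. At 48 h with CdCl 3 of 8 were higher and 1 lower, beside 22.9% and 23.5% of all genes. Di raised 2 of 8 and lowered none at 12 h, beside 3.61% higher and 8.23% lower of all genes, and at 48 h it raised 2 and lowered 2, beside 21.4% and 25.9%.

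Aa and Ota at the high dose changed members in both directions. With Aa high, 2 of 8 were higher and 2 lower at 24 h, and 3 higher and 1 lower at 48 h. All genes were called higher and lower at 26% and 23.9% at 24 h, and at 29.8% and 34.5% at 48 h. With Aa low 1 was lower at 24 h (10.2% of all genes higher, 13% lower), and 1 was higher and 1 lower at 48 h (17.7% and 19.3%). With the replicate number as a block, 6 of 8 were called in Aa high 24 h, 3 in Aa low 24 h and 4 in Aa low 48 h. The shares of all genes in this paragraph are from the fit without the block, and those with it are not given here. Ota high raised 2 and lowered 4 at 24 h, beside 21.4% and 43.6% of all genes, and raised 4 and lowered 2 at 72 h, beside 25.3% and 37.9%. Ota low had no call at 24 h (3.72% higher and 9.99% lower of all genes, 3 members at an unadjusted p under 0.05), and 1 lower at 72 h (9.01% and 7.02%).

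Nnm and Kbr moved few members in this fit. Nnm high lowered 2 of 8 at 24 h, beside 17.6% higher and 18.4% lower of all genes, and raised 2 at 48 h, beside 15.4% and 12.3%. Nnm low had no call by limma at 24 h (9.39% and 9.13% of all genes) or 48 h (8.39% and 5.73%), with 2 members at an unadjusted p under 0.05 each time. Kbr high had none at 24 h (8.17% and 13.4%, 0 members at an unadjusted p under 0.05) and lowered 1 at 48 h (22.2% and 28.9%). Kbr low had none at 24 h (0.671% and 0.689%, 0 members at an unadjusted p under 0.05) and raised 1 at 48 h (15.2% and 14.3%). Without the 9 arrays that stood apart, the counts were 4 in Nnm high at each time, 2 in Nnm low at each time, 2 in Kbr high 48 h and 4 in Kbr low 48 h. The shares of all genes above are from the fit with all arrays, and those without the 9 are not given here. The calls added in Nnm high were IL6 (-2.24) and CCL2 (-2.67) at 24 h and LIF (0.92) and CCL2 (-3.55) at 48 h. In Nnm low they were CXCL8 (-0.97) and CXCL5 (-1.60) at 24 h and CCL20 (2.17) and CXCL3 (1.09) at 48 h. In Kbr high 48 h CXCL2 (1.07) was added, and in Kbr low 48 h CXCL8 (0.72), CCL20 (2.09) and CCL2 (-2.43).

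CsA, Fk and Ra had no member called by limma at either time. All genes were called higher and lower at 0% and 0% in CsA 12 h, 0.00925% and 0% in CsA 48 h, 0.00918% and 0% in Fk 12 h, and 0% both ways in Fk 48 h. In Ra 12 h these shares were 0.0367% and 0%, and in Ra 48 h 1.87% and 7.46%. At an unadjusted p under 0.05 there were 0, 1, 2, 0, 0 and 0 members in CsA 12 h, CsA 48 h, Fk 12 h, Fk 48 h, Ra 12 h and Ra 48 h. These comparisons include the arrays that stood apart, and without those 1 member, LIF, was called in Ra 48 h. Shares of all genes without those arrays are not given here.

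IL6, the founding cytokine of its family and an inducer of the acute phase response, was called higher in 6 treated groups and lower in none. Its largest rise was in Aa high 48 h, with 7.95, 8.41 and 9.13 in treated cultures, against 1.90, 3.60 and 5.31 in controls. The groups did not overlap, and the difference was 4.89 ± 0.90 (adjusted p = 0.000208). Aa low at 48 h, with 3.56, 6.09 and 6.34, overlapped the controls. In Aa high 24 h IL6 stood at 6.60, 7.33 and 7.69, against 3.69, 4.32 and 5.21 in controls, a rise of 2.80 ± 0.90 (adjusted p = 0.0171). That call was lost without Aa control replicate 1 (2.44) or Aa high replicate 3 (2.56).

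Ota high at 72 h had IL6 at 6.07, 6.27 and 10.34, against 2.71, 2.63 and 3.14 in controls. Replicate 3 was far above the others, and the rise was 4.73 ± 0.77 with it (adjusted p = 6.57e-05) and 3.34 without it, also called. The controls lay near background, so the rise may be larger than measured. CXCL8 and CXCL2 in Ota high 72 h were not called with that array and lower without it (-0.98 and -1.43). At 24 h with Ota high IL6 was 4.48, 4.82 and 4.63, against 3.90, 3.08 and 4.12 in controls, and the difference was not called.

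With CdCl IL6 was 7.77, 7.87 and 8.11 at 12 h, against 5.33, 5.05 and 4.78 in controls, with little spread in either group. The rise was 2.86 ± 0.15 (7.28-fold, adjusted p = 1.08e-09). At 48 h it was 6.12, 6.36 and 6.23, against 4.45, 4.27 and 4.29 in controls, a rise of 1.90 ± 0.15 (adjusted p = 7.93e-08). Di at 12 h raised it by 0.70 ± 0.15 (adjusted p = 0.00875), and at 48 h Di arrays (4.47, 4.46 and 4.70) lay just above the controls with no call.

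IL11, a cytokine that acts on stromal and epithelial cells and is known for its part in fibrosis, gave different pictures in its 2 probe sets. The one with the higher mean, 206926_s_at, stayed between 2.98 and 3.96 on all arrays and was never tested. The other, 206924_at, was above log2 4 on 15 arrays and reached 8.71. It would pass the filter only through groups in which it was high, so its values are given as a description with no test. Its controls lay at background in most arrays, so that a difference from them is a lower bound. In Aa high 48 h it stood at 8.35, 7.84 and 8.71, against 2.45, 2.40 and 2.46 in controls, so IL11 was far above background in every treated culture and at background in every control. The difference of the means was 5.86.

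IL11 was also high in CdCl 12 h, at 7.43, 7.56 and 7.76, against 2.46, 2.49 and 2.48 in controls, a difference of 5.11. At 48 h with CdCl it was 4.03, 3.19 and 4.22, against 2.47, 2.36 and 2.48 in controls, a smaller difference of 1.38. In Aa high 24 h it was 2.83, 3.69 and 3.72, all under log2 4, against 2.49, 2.44 and 2.48 in controls. Ota high 72 h had 3.61, 4.15 and 4.62, against 2.46, 2.48 and 2.48 in controls, and the groups did not overlap. In Di it lay between 2.45 and 2.50 on all 6 arrays, and in the other compounds no group had all 3 arrays above log2 4. The nearest was Ra 12 h, with 4.63, 5.31 and 3.63, against 3.92, 3.27 and 3.54 in controls, which overlapped.

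LIF, another ligand of gp130 with a receptor chain of its own, was above log2 6 on all 114 arrays. It was called higher in 8 treated groups and lower in none. Its largest rise was in Aa high 48 h, with 8.61, 8.73 and 8.60 in treated cultures, against 6.73, 6.31 and 7.25 in controls (1.88 ± 0.19, 3.69-fold, adjusted p = 8.49e-07). Aa low at the same time stood at 8.18, 7.90 and 8.25, above every control, a rise of 1.34 ± 0.19. Aa high at 24 h raised LIF by 0.74 ± 0.19.

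Ota high at 72 h had LIF at 7.91, 8.02 and 8.74, against 6.80, 6.24 and 6.87 in controls (1.59 ± 0.23, adjusted p = 2.29e-05), and at 24 h the rise was 0.68 ± 0.23. CdCl raised it by 0.49 ± 0.15 at 12 h and 0.86 ± 0.15 at 48 h, and Di by 0.56 ± 0.15 at 48 h. Without CdCl 12 h replicate 3 the first of these was 0.43 and no longer called, and without Ota control 24 h replicate 2 the rise at 24 h was 0.57 and no longer called. In these 8 groups all treated arrays lay above all controls.

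**Figure D2:**
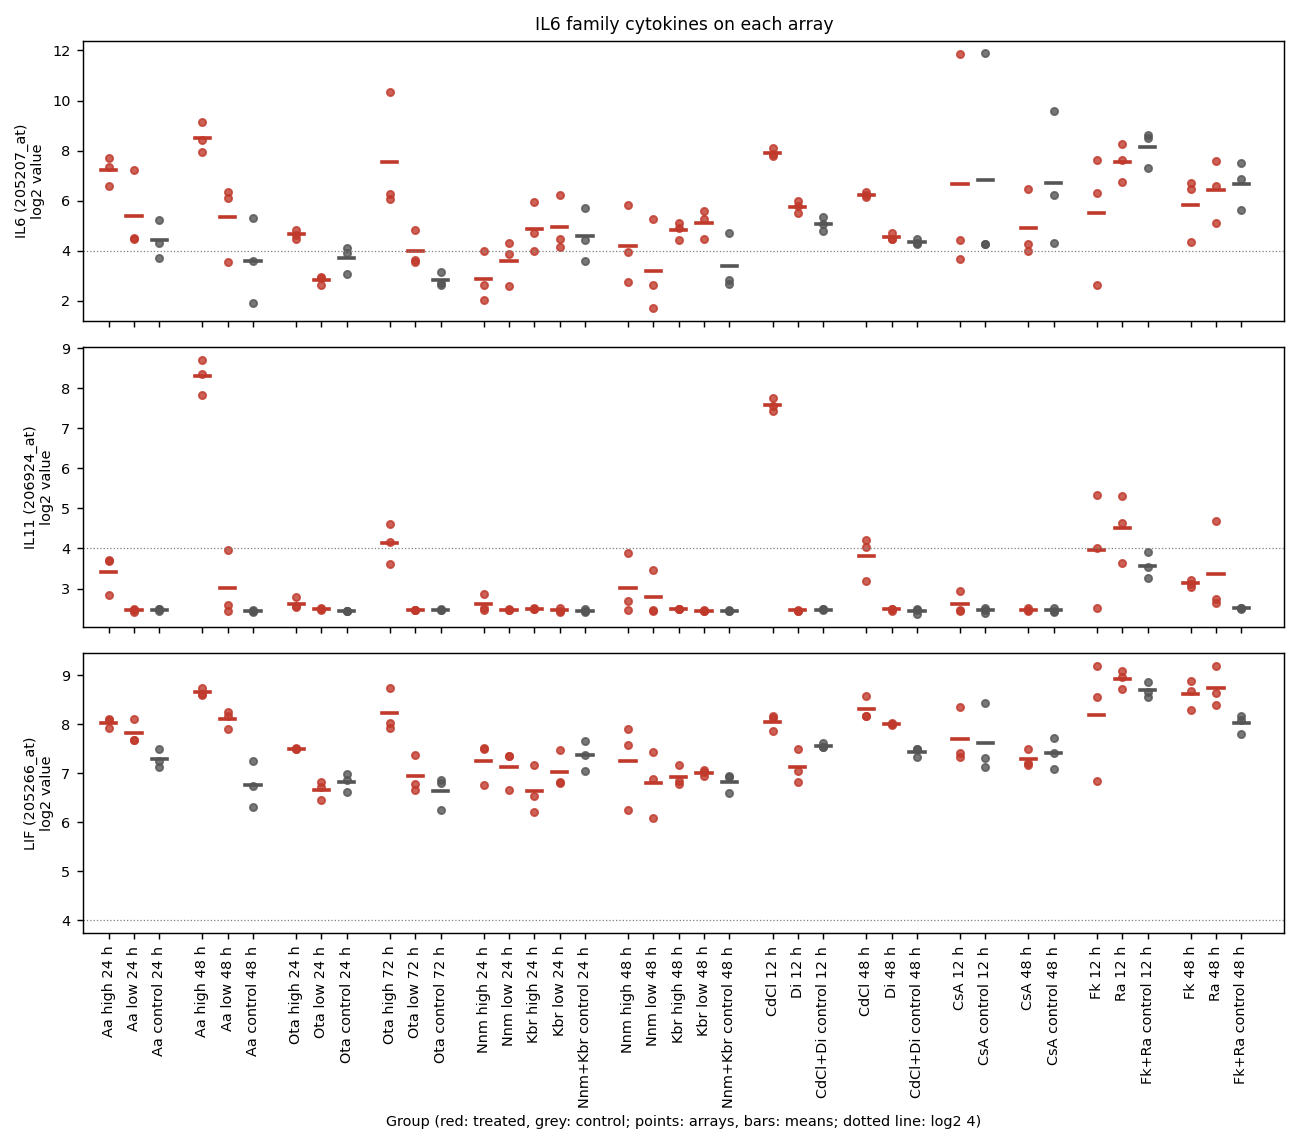
Log2 values of IL6, IL11 (probe set 206924_at) and LIF on each of 114 arrays, by group, with treated groups in red left of their controls in grey and bars at the means of 3 arrays. IL6 and IL11 stand above their controls in Aa high 48 h and CdCl 12 h, and the CsA panel shows 1 IL6 array near 11.9 in treated and in control cultures alike.

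CCL2, the monocyte chemoattractant, moved the other way from IL6 in every group where both were called in the reported fit. These were CdCl at either time, Aa at its high dose at 48 h, and Ota at its high dose at 72 h. Without the 9 arrays that stood apart, both genes were called lower in Nnm high 24 h, at -2.24 for IL6 and -2.67 for CCL2. In the reported fit CCL2 was called lower in 7 of the 22 treated groups in which it was tested and higher in none. Its largest measured fall was in Ota high 72 h, with 4.19, 4.26 and 5.75 in treated cultures, against 8.30, 7.90 and 8.53 in controls (-3.51 ± 0.48, adjusted p = 1.27e-05). The order of the falls is limited, since treated arrays reached background in other groups such as CdCl 48 h. Ota high at 24 h had 4.69, 5.15 and 6.14, against 7.93, 7.33 and 8.42 in controls (-2.57 ± 0.48, adjusted p = 0.000254). All treated arrays lay below all controls at both times. Ota low at 72 h, with 8.95, 8.35 and 9.52, was the highest of all groups, and its difference of 0.70 from controls was not called.

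In CdCl 48 h CCL2 stood at 2.92, 2.72 and 2.76, against 6.14, 5.80 and 5.65 in controls (-3.06 ± 0.36, adjusted p = 6.74e-06). That is about the level of the Fk, Ra and their control arrays, 2.30 to 2.90, where CCL2 was at background, so the fall may be larger than measured. At 12 h with CdCl it was 5.19, 5.38 and 3.75, against 7.02, 6.31 and 5.97 in controls (-1.66 ± 0.36). Di lowered it at 48 h, with 3.72, 3.93 and 3.73 in treated cultures (-2.07 ± 0.36, adjusted p = 0.000248), and not at 12 h, where the values 6.81, 5.81 and 6.14 overlapped those of controls.

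Aa high at 48 h had CCL2 at 3.27, 4.12 and 2.73, against 6.18, 7.31 and 5.76 in controls (-3.04 ± 0.70, adjusted p = 0.00146). Kbr high at 48 h had 3.00, 2.61 and 4.50, against 6.32, 7.07 and 6.07 in controls (-3.12 ± 0.97, adjusted p = 0.0103). Replicates of the same number deviated together in the Aa, Nnm with Kbr, and CsA arrays. With the replicate number as a block, falls were also called in Aa high 24 h, Aa low 48 h, Nnm high 48 h and Kbr low 48 h, at adjusted p of 0.000136 to 0.0122. Without the block their adjusted p were 0.0625 to 0.196, and over all settings tried 0.000136 to 0.562. In CsA 48 h CCL2 was lower than its control in each pair of equal number (4.25, 4.24 and 2.61 against 6.60, 6.27 and 3.60), a difference of -1.80 with an adjusted p of 0.106 under the block.

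CCL20, the ligand of CCR6, was called higher in 3 treated groups and lower in 2. Its largest rise was in Nnm high 48 h, with 6.88, 5.62 and 9.22 in treated cultures, against 4.37, 4.98 and 4.44 in controls. No treated array overlapped a control, but they spread over more than 3 units, and the rise of 2.64 ± 0.82 (adjusted p = 0.0201) was 1.65 and not called without replicate 3. Leaving out control replicate 1 (2.53) or 3 (2.56) also ended the call. Ota high 72 h had 6.86, 8.79 and 10.19, against 6.43, 5.61 and 7.80 in controls. These groups overlapped, and the rise of 2.00 ± 0.77 (adjusted p = 0.0329) was lost when any of 4 arrays was left out (1.21 without Ota high replicate 3, 1.50 without control replicate 2, and 1.91 without Ota high replicate 2 or control replicate 1).

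CCL20 was tighter with CdCl at 12 h, at 8.18, 8.28 and 7.82, against 6.65, 6.78 and 6.57 in controls (1.43 ± 0.14, 2.69-fold, adjusted p = 1.74e-06). At 48 h CdCl arrays (7.22, 6.98 and 7.46) overlapped controls (7.24, 7.55 and 7.31), and Di arrays lay below them at 6.43, 6.43 and 6.54 (-0.90 ± 0.14, adjusted p = 0.000101). The largest fall was in Aa low 24 h, with 3.25, 4.54 and 3.63, against 5.39, 6.94 and 6.37 in controls (-2.42 ± 0.64, adjusted p = 0.0134). It was lost without Aa low replicate 1 (-2.14) or control replicate 2 (-2.07). Aa high at that time, at 4.23, 5.64 and 4.36, had a difference of -1.49 that was called with the replicate block (adjusted p = 0.00657, over all settings 0.00657 to 0.216), and without Aa high replicate 2 (-1.94) or control replicate 1 (-1.91).

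CXCL5, a neutrophil chemoattractant of the CXCR2 group, was called higher in 4 treated groups and lower in none. Its largest rise was in CdCl 12 h, with 10.57, 10.34 and 10.88 in treated cultures, against 8.18, 8.15 and 8.29 in controls (2.39 ± 0.26, 5.24-fold, adjusted p = 3.62e-06). At 48 h CdCl arrays stood at 9.61, 9.44 and 9.72, against 7.70, 7.94 and 7.38 in controls (1.92 ± 0.26). Ota high had 8.82, 8.86 and 8.75 at 24 h, against 7.38, 6.94 and 7.67 in controls (1.48 ± 0.25), and 8.30, 8.69 and 9.12 at 72 h, against 6.45, 6.23 and 7.23 in controls (2.07 ± 0.25, adjusted p = 4e-06). In these 4 groups the treated arrays lay above all controls, and a second probe set, 215101_s_at, was called in the same direction in each. Over all treated groups 215101_s_at was called in 5, against 4 for 214974_x_at, which stood for the gene. The suffix _x_at marks a kind of probe set that can also bind related transcripts. The remaining probe set, 207852_at, was above log2 4 on only 2 of 114 arrays, too few for a test, and had no call. In Aa CXCL5 was not called at either dose or time. In Nnm low 24 h its difference of -1.60 was not called with all arrays, and was called with the replicate block (adjusted p = 0.011, over all settings 0.00516 to 0.235), without the arrays that stood apart, and without Nnm low replicate 3 (-2.06).

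**Figure D3:**
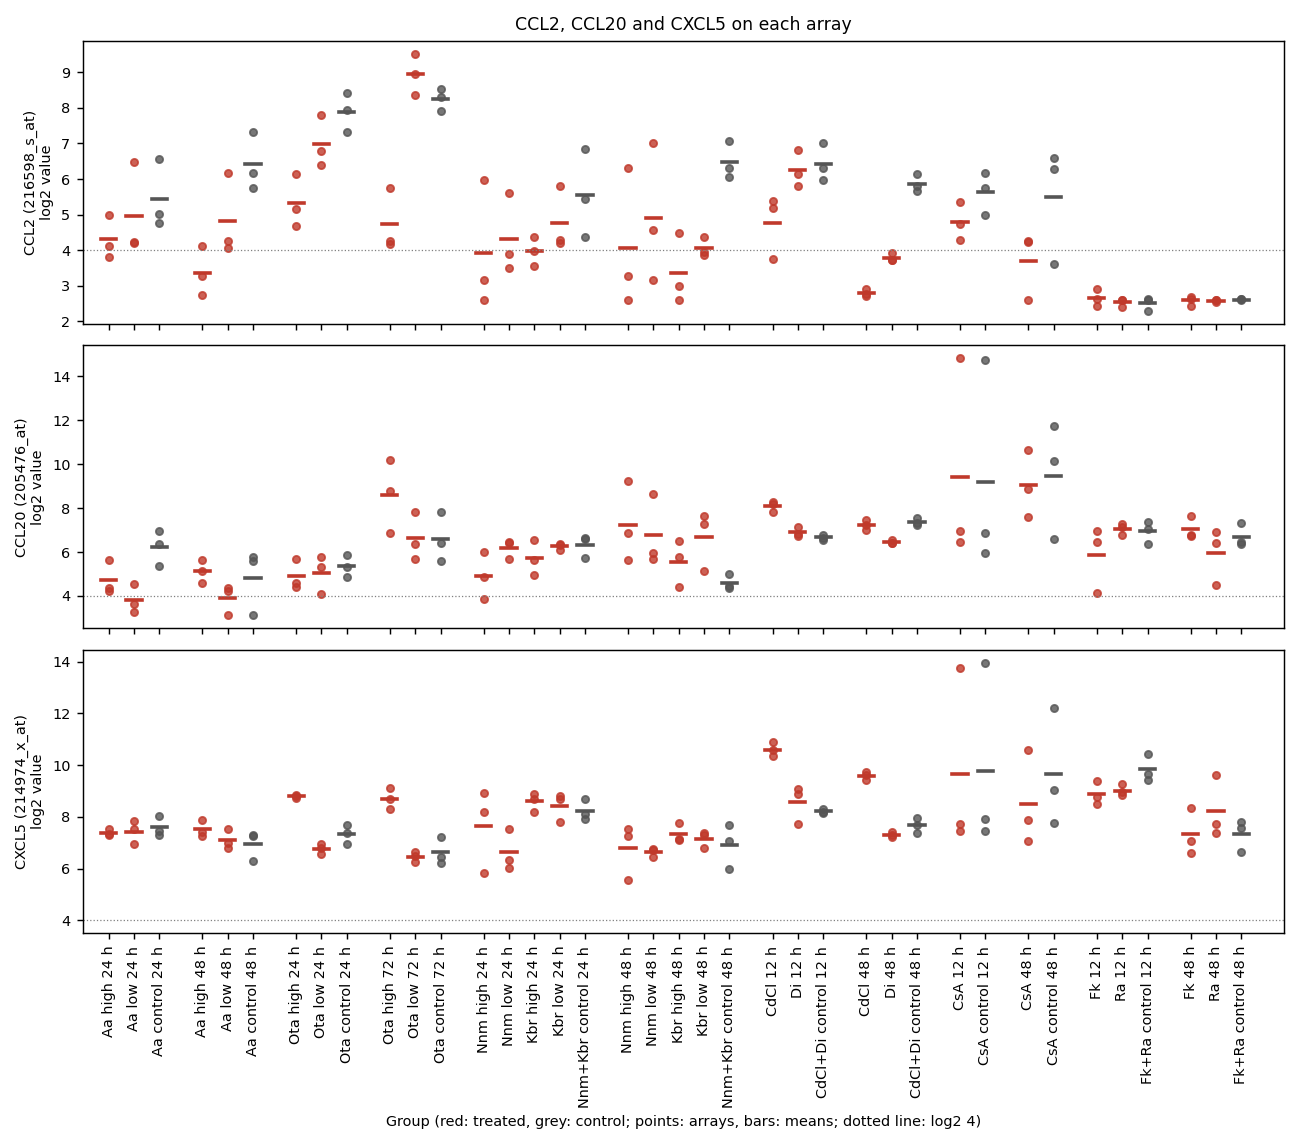
Log2 values of CCL2, CCL20 and CXCL5 on each of 114 arrays, by group, with treated groups in red left of their controls in grey and bars at the means of 3 arrays. CCL2 lies below its controls in Ota high, Aa high 48 h and CdCl 48 h and at background in all Fk, Ra and control arrays of that family. CXCL5 lies above its controls in Ota high and CdCl.

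CXCL8, the main neutrophil chemoattractant of human cells, was between log2 11 and 14.4 on all but 3 arrays. It was called higher in 2 treated groups and lower in 3. In Di 48 h, its largest rise, it stood at 14.10, 14.16 and 14.18, against 13.30, 13.30 and 13.02 in controls (0.94 ± 0.16, 1.92-fold, adjusted p = 0.000147). CdCl at 12 h gave a rise of 0.81 ± 0.16 (adjusted p = 0.000606). Its largest fall was in Nnm high 24 h, with 9.33, 11.68 and 8.97, against 12.39, 12.67 and 12.70 in controls (-2.60 ± 0.46, 6.04-fold lower, adjusted p = 0.000369). Replicate 2 of that group, one of the arrays that stood apart, was nearest to the controls, and without the 9 arrays that stood apart the change was -3.44. At 48 h Nnm high arrays (12.12, 11.18 and 12.67) overlapped controls (12.07, 12.28 and 12.58).

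CXCL8 was also lower at 24 h with Aa high, at 11.49, 11.80 and 11.20, against 12.30, 12.50 and 12.37 in controls (-0.90 ± 0.14, adjusted p = 9.83e-05). Ota high at 24 h had 11.14, 11.31 and 11.11, against 12.51, 12.14 and 12.41 in controls (-1.17 ± 0.43, adjusted p = 0.0252). That call was lost when any of 4 arrays was left out (-1.09 and -1.14 without control replicate 1 or 3, -1.14 and -1.13 without Ota high replicate 1 or 3). The second probe set of CXCL8, 211506_s_at, followed the first with a Pearson r of 0.949 over the 26 changes, which share controls, and was called in 7 groups against 5. The second alone was called in Aa high 48 h (0.74), CdCl 48 h (0.55) and Di 12 h (0.32, where the first was at -0.09), and the first alone in Ota high 24 h, where the second was at -0.74 (adjusted p = 0.245).

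CXCL2, a CXCR2 ligand close in sequence to CXCL1 and CXCL3, was called higher in 4 treated groups and lower in 4. Its probe set, 209774_x_at, is of the kind that can also bind transcripts of such relatives. Its largest rise was in Kbr low 48 h, with 11.15, 10.70 and 9.85, against 9.10, 8.83 and 9.47 in controls (1.43 ± 0.50, adjusted p = 0.0347). No array overlapped, but the call was lost without replicate 1 (1.14) or 2 (1.36) of Kbr low, or replicate 1 (1.41) or 2 (1.28) of the controls. Its largest fall was in Ota high 24 h, with 7.27, 8.10 and 6.99, against 8.89, 9.25 and 9.41 in controls (-1.73 ± 0.58, adjusted p = 0.0153). Without Ota high replicate 3 it was -1.50 and not called. In Nnm high 24 h the fall of 1.38 on the log2 scale was lost when any of 5 arrays, all but Nnm high replicate 2, was left out (-1.52 to -1.06).

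The response of CXCL2 to Aa high changed direction with time. It was 8.69, 8.81 and 8.35 at 24 h, against 9.14, 9.63 and 9.68 in controls (-0.87 ± 0.23), and 9.96, 10.43 and 10.34 at 48 h, against 8.92, 9.14 and 9.59 in controls (1.03 ± 0.23). In Aa low 48 h it was 8.29, 8.90 and 8.21 and lower than controls (-0.75 ± 0.23, adjusted p = 0.02), a call lost without Aa low replicate 1 (-0.66) or 3 (-0.62) or control replicate 3 (-0.56). CdCl at 12 h raised it by 0.81 ± 0.17. The rise of 0.57 ± 0.17 in Di 12 h was lost when any of its 6 arrays was left out (0.49 to 0.64). Another probe set of CXCL2, 1569203_at, was above log2 4 on 19 arrays and had no call, with 0.88 (adjusted p = 0.124) in CdCl 12 h and -0.11 in Di 12 h.

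CXCL3, the third of these close relatives, had group means of 4.05 to 7.41 and was called higher in 2 and lower in 3. In Nnm high 48 h, its largest rise, it was 6.39, 4.97 and 7.80, against 4.50, 4.53 and 4.83 in controls (1.76 ± 0.47, adjusted p = 0.00876). All treated arrays lay above the controls, and without replicate 3 the change was 1.05 and not called. CdCl at 12 h raised it by 0.80 ± 0.23. Its largest called fall was in Ota low 72 h, with 4.61, 4.43 and 5.03, against 5.44, 6.12 and 6.23 in controls (-1.24 ± 0.26, adjusted p = 0.00441). Ota high at 72 h, with 4.30, 5.09 and 5.12, gave a similar value (-1.09 ± 0.26). Ota high at 24 h was lower by less (-0.64 ± 0.26, adjusted p = 0.0417), overlapped the controls, and lost its call without replicate 1 (-0.63) or 3 (-0.54) of Ota high, or replicate 2 (-0.54) or 3 (-0.52) of the controls.

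CXCL1, the best known ligand of CXCR2 beside CXCL8, was read by 1 probe set that lay between 2.44 and 2.60 on all 114 arrays. It never left background, also on the arrays where CXCL2 and CXCL3 were high. Whether the transcript was absent or the probe set did not respond was not tested, and no level of CXCL1 is given.

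**Figure D4:**
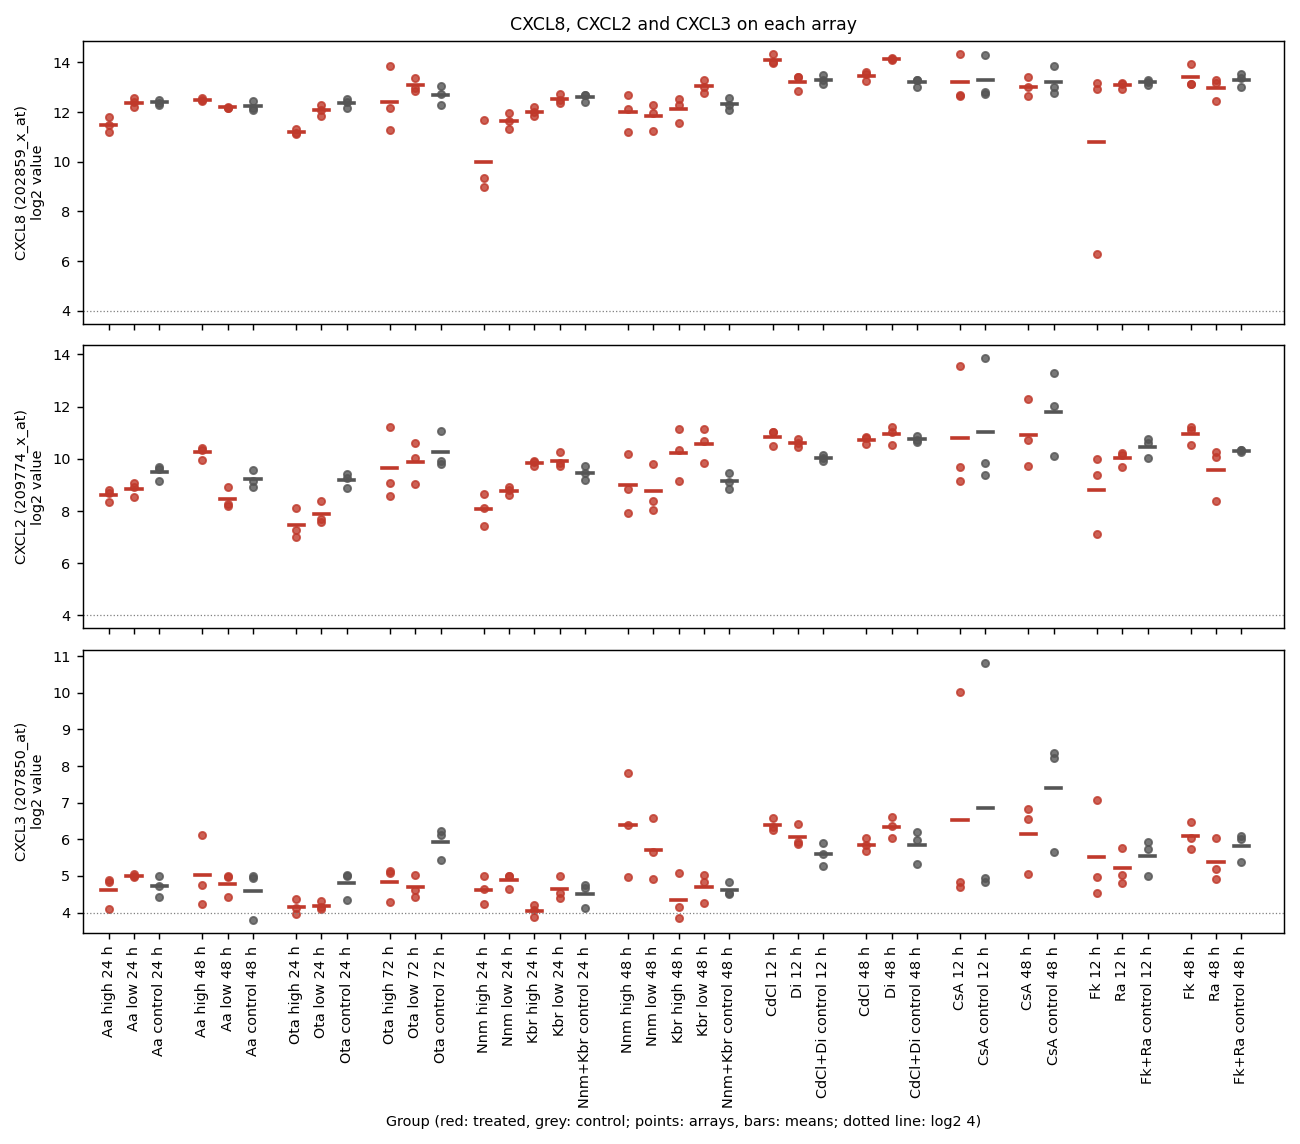
Log2 values of CXCL8, CXCL2 and CXCL3 on each of 114 arrays, by group, with treated groups in red left of their controls in grey and bars at the means of 3 arrays. CXCL8 lies above 11 except on 2 arrays of Nnm high 24 h and 1 array of Fk 12 h at 6.28, and CXCL2 lies below its controls in Aa high 24 h and above them in Aa high 48 h.

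The CsA arrays differed by replicate number more than by treatment. At 12 h IL6 was 3.67, 4.43 and 11.87 with CsA, against 4.28, 4.27 and 11.88 in the controls of the same numbers. CCL20 was 6.44, 6.94 and 14.82 with CsA, against 5.94, 6.87 and 14.75 in controls, and CXCL5 was 7.44, 7.73 and 13.75 with CsA, against 7.47, 7.91 and 13.95 in controls. In replicate 3 these genes, with CXCL2 (13.57 with CsA, 13.85 in control) and CXCL3 (10.02 with CsA, 10.81 in control), were thus high in treated and control cultures alike, while CCL2 was not (4.30 with CsA, 5.75 in control). At 48 h IL6 was 4.0, 4.28 and 6.47 with CsA, against 4.32, 6.21 and 9.59 in controls. There IL6, CXCL5, CXCL3, CXCL2 and CCL2 were lower with CsA in 3 of 3 pairs, and none was called.

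With the replicate block the largest of these differences at 48 h were -1.80 ± 0.56 for CCL2, -1.79 ± 1.08 for IL6, -1.27 ± 1.17 for CXCL3 and -1.16 ± 0.65 for CXCL5. Their adjusted p were 0.106, 0.36, 0.557 and 0.327. Without the arrays numbered 3, CCL2 differed by -2.19 ± 0.39 (adjusted p = 0.2) and IL6 by -1.12 ± 0.58 (adjusted p = 0.361). The labels give no reason for the difference between replicates.

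**Figure D5:**
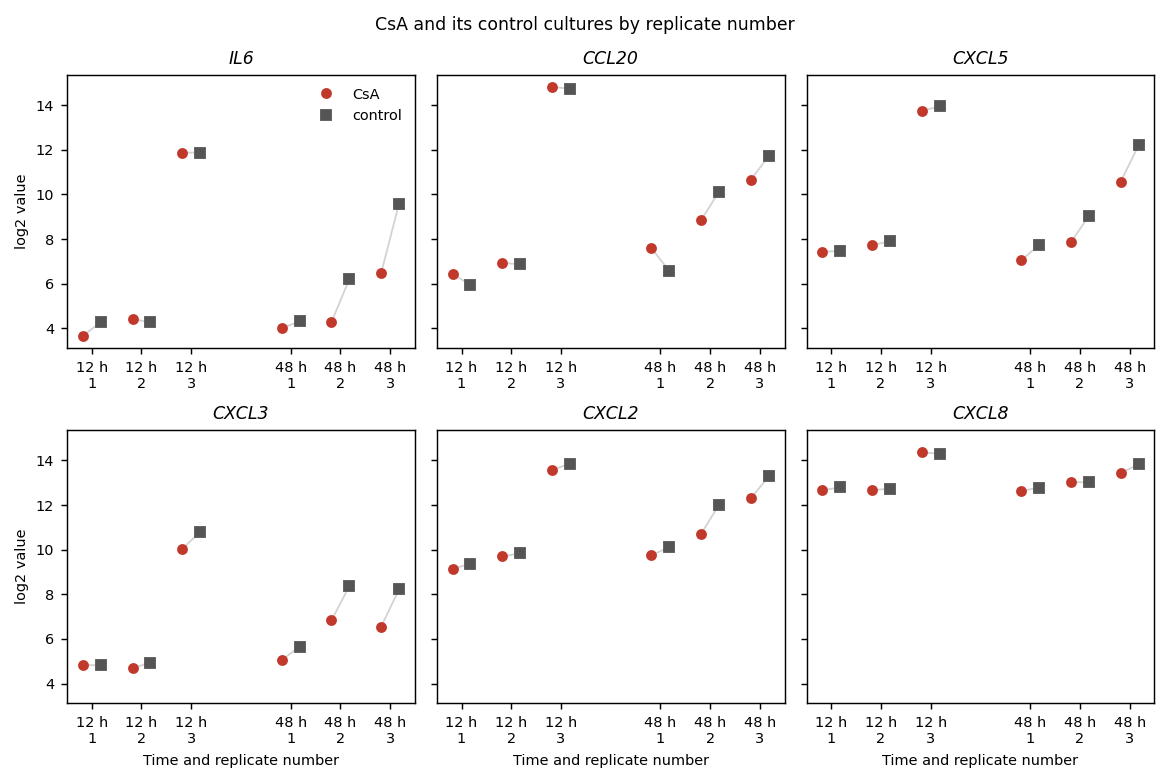
Log2 values of 6 members in CsA cultures (red circles) and control cultures (grey squares), joined by replicate number, at 12 and 48 h. Both arrays numbered 3 at 12 h stand far above the other replicates for IL6, CCL20, CXCL5, CXCL3 and CXCL2, and at 48 h the CsA point is the lower of each pair except for CCL20 in replicate 1 and CXCL8 in replicate 2.

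In Fk 12 h replicate 3 alone stood apart. CXCL8 was 13.17, 12.93 and 6.28 with Fk, against 13.28, 13.09 and 13.21 in controls, and IL6 was 7.61, 6.32 and 2.64 with Fk, against 8.64, 7.30 and 8.52 in controls. CXCL3 on that array, at 7.07, was the highest of the group instead. Without the arrays that stood apart the differences in Fk 12 h were -0.14 for CXCL8, -1.19 for IL6, -1.22 for CXCL5 and -0.78 for CXCL2, and no member was called by limma. In Ra 48 h LIF was 8.63, 8.40 and 9.19, against 7.81, 8.09 and 8.17 in controls. This difference of 0.72 was not called with all arrays, and without the arrays that stood apart it was 0.89 ± 0.23 (adjusted p = 0.0282).

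The dose was tested directly in the 4 compounds given at 2 doses. Of 64 member tests 9 were higher and 3 lower at the high dose, where 24.6% of all gene tests were called either way. Ota had most of them: at 72 h the high dose was above the low dose for CXCL5 (2.25 ± 0.25), CCL20 (2.00 ± 0.77), IL6 (3.56 ± 0.77) and LIF (1.28 ± 0.23), and below it for CCL2 (-4.21 ± 0.48). Without Ota high replicate 3 the IL6 difference was 2.17, still called, and that of CCL20 1.21 and not called. The call of CCL20 was also lost without Ota high replicate 2 (1.91), Ota low replicate 1 (1.53) or Ota low replicate 2 (1.87). At 24 h the same direction was called for CXCL5 (2.04 ± 0.25), LIF (0.83 ± 0.23) and CCL2 (-1.67 ± 0.48). Of 11138 genes tested with Ota, 2325 were higher and 4116 lower at the high dose at 72 h, and 2179 and 4383 at 24 h. The Ota doses thus differed in a large part of all genes, and not in the members alone. Aa high at 48 h was above Aa low for CXCL2 (1.78 ± 0.23), IL6 (3.17 ± 0.90) and LIF (0.54 ± 0.19), and at 24 h it was below for CXCL8 (-0.89 ± 0.14). Of 11106 genes tested with Aa, 2249 were higher and 2722 lower at the high dose at 48 h, and 1845 and 1087 at 24 h. The call of IL6 was lost without Aa low 48 h replicate 1 (2.28), and that of LIF without any array of either dose but Aa low replicate 3 (0.43 to 0.57). IL11 by its second probe set was 8.35, 7.84 and 8.71 in Aa high 48 h, against 2.45, 3.97 and 2.59 in Aa low 48 h. With the replicate block the Aa doses also differed for IL6 (1.81) and CCL2 (-0.66) at 24 h and for CCL20 (1.22) and CCL2 (-1.46) at 48 h, at adjusted p of 0.000157 to 0.0381. Nnm and Kbr had no dose call by limma, with 1 member at an unadjusted p under 0.05 over their 4 comparisons. Of 11036 genes tested, Nnm had 0 called between doses at either time, and Kbr had 1 higher and 5 lower at 24 h and 189 higher and 697 lower at 48 h.

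The time was tested as the later response minus the earlier one, each against its own control. Of 102 member tests 7 were higher and 5 lower, where 11.3% of all gene tests were called either way. Among all genes, 736 were higher and 1356 lower of 11106 in Aa high, and 3647 and 2296 of 11138 in Ota high. Of 11045 genes, 2331 were higher and 1032 lower in CdCl, and 1929 and 1786 in Di. In Aa high the response at 48 h was above that at 24 h for CXCL2 (1.90 ± 0.33), CXCL8 (1.17 ± 0.20) and LIF (1.14 ± 0.27). In Ota high it was above for IL6 (3.79 ± 1.09) and LIF (0.91 ± 0.33). Without Ota high 72 h replicate 3 these were 2.40, still called, and 0.66, not called, and LIF also lost its call without Ota control replicate 1 (0.90) or 3 (0.83) of 24 h or replicate 2 (0.72) of 72 h. In CdCl it was below for CCL20 (-1.57 ± 0.20), IL6 (-0.96 ± 0.21) and CXCL2 (-0.84 ± 0.24). In Di it was above for CXCL8 (1.02 ± 0.22) and LIF (1.00 ± 0.21) and below for CCL2 (-1.89 ± 0.51) and CCL20 (-1.15 ± 0.20). With the replicate block 20 of the 102 were called, and the share of all gene tests under the block is not given here. Among them were, in the paired Aa arrays, CCL20 (1.79), IL6 (2.10) and CCL2 (-1.90) in Aa high and LIF (0.82) in Aa low.

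Control cultures themselves moved in 5 of 47 member tests, 3 higher and 2 lower later, beside 18.2% of all gene tests called either way. CXCL5 fell to 6.62, 7.58 and 7.78 in the Fk and Ra controls of 48 h, against 9.67, 9.44 and 10.41 at 12 h. CXCL3 was higher in the Ota controls of 72 h (1.14 ± 0.26). In the CdCl and Di controls of 48 h CXCL2 (0.72 ± 0.17) and CCL20 (0.70 ± 0.14) were higher and IL6 (-0.72 ± 0.15) was lower. With the replicate block 9 of the 47 were called, in the paired Aa controls LIF (-0.53), CCL20 (-1.41) and CCL2 (0.97). The share of all gene tests under the block is not given here either. Controls also differed between compounds at equal times, since CCL2 at 12 h averaged 6.43 ± 0.53 in the CdCl and Di controls, 5.64 ± 0.59 in the CsA controls and 2.51 ± 0.18 in the Fk and Ra controls (SD, n = 3 each). These cultures received no compound, and culture series and, for CsA, laboratory cannot be told apart in such a difference. Between compounds with different controls, compound and culture series cannot be told apart.

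The replicate block also changed calls of IL6, LIF and CXCL2 in the paired arrays. IL6 was then called higher in Aa low 48 h (1.73), Kbr high 48 h (1.42) and Kbr low 48 h (1.70), and lower in Nnm high 24 h (-1.70), at adjusted p of 0.00995 to 0.0354. Over all settings tried these 4 differences had adjusted p of 0.00995 to 0.496. In Aa low 24 h LIF (0.53) and CXCL2 (-0.65) were called with the block, at adjusted p of 0.0158 and 0.0163. LIF in Kbr high 24 h was lower with it (-0.72, adjusted p = 0.0325). The adjusted p of these 3 ran from 0.0158 to 0.423 over all settings.

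Receptors of the members were measured only for the IL6 family. Of 12 receptor genes 4 passed the filter, and CXCR1, CXCR2, CCR2, CCR6 and IL11RA were not among them. IL6ST, the shared gp130 chain, was higher in 7 treated groups and lower in 4 (from -0.53 in Kbr high 48 h to 0.97 in Ota high 24 h). IL6R was higher in 5 and lower in 2. OSMR, on the list as the receptor chain of oncostatin M, which is not a member, was higher in 5 and lower in 5. Over the list, with OSMR included, 18 of 104 gene tests were higher and 16 lower, next to 11.8% and 15.1% of all genes.

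Of the genes of the NF-kappaB system, 14 of 15 were in the table and 51 of 364 tests were higher and 24 lower. Over all genes in these comparisons the shares were 11.8% higher and 15.1% lower. Aa high had 10 of 14 higher and 1 lower at 24 h and 9 higher and 2 lower at 48 h, with median changes of 0.77 and 0.84 against 0.01 and -0.04 over all genes. Of all genes 26% were called higher and 23.9% lower in the first of these comparisons, and 29.8% and 34.5% in the second. REL, a subunit, was higher in 8 groups and lower in 1, with its highest change in Aa high 24 h (2.18). NFKBIA, the inhibitor and target IkappaB alpha, was higher in 7 and lower in 2 (highest 1.71, Aa high 24 h). TNFAIP3, which encodes the feedback inhibitor A20, was higher in 7 and lower in 1, and its highest change was 3.02 in CdCl 12 h. IKBKG, the regulatory kinase subunit, was higher in 4 and lower in 4. In CdCl 12 h, where 7 members were higher, 3 of these 14 genes were higher and 3 lower, beside 14.5% and 34.3% of all genes.

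Of 248 tests of other known NF-kappaB targets 33 were higher and 33 lower, which is near the 11.8% and 15.1% of all genes. IRF1, a transcription factor, was higher in 7 groups and lower in 3, while VCAM1, an adhesion molecule, was lower in 10 and higher in none (lowest -4.48, Di 48 h). C3, the central complement component, was lower in 9 and higher in none (lowest -2.83, Ota high 72 h).

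Among 15 other chemokines 11 of 78 tests were higher and 8 lower, on CCL28 (4 higher, 4 lower), CX3CL1 (3 and 4) and CXCL16 (4 and 0). Among 20 other cytokines 34 of 212 tests were higher and 32 lower. IL15 was higher in 6 groups and lower in 5, TNFSF10 (TRAIL) higher in 3 and lower in 8, and IL18 and IL7 each higher in 5 and lower in 5. Of the factors that bind AU-rich inflammatory mRNAs, 16 of 182 tests were higher and 41 lower. The shares over all genes in these comparisons were 11.8% higher and 15.1% lower. HNRNPD was lower in 9 groups and higher in 1, ELAVL1 lower in 7 and higher in 2, and AUH lower in 8. ZFP36, which encodes tristetraprolin, a factor that speeds decay of such mRNAs, was higher in 5 and lower in 3, and KHSRP and ZFP36L2 were each higher in 4 and lower in 4.

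The genes whose 26 changes were most like those of CXCL8 were BCL2L1 (Pearson r = 0.749), PLK2 (0.704), OR3A2 (0.696), PPP1R3B (0.695) and LINC00973 (0.688), among 10522 genes tested in all arrays. For IL11 (probe set 206924_at) they were IER5 (0.752), INHBA (0.701), GEM (0.685), DLX2 (0.682) and WDR27 (0.677). INHBA, which encodes the activin beta A chain, had its highest change in CdCl 12 h (3.59), and GEM, a small GTPase, in Aa high 48 h (3.05). None of these was a member. The 26 changes share control arrays, so the values describe likeness only.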

How the data were processed

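Total RNA of 114 HK-2 cultures was measured on Affymetrix arrays. Per the submitters' processing notes the authors used GCRMA, and the series' design text says that all data were normalized together. The deposited table holds log2 values for 54675 probe sets, used as deposited. Probe sets were named by the platform annotation: 41091 carry 1 symbol, 1801 several, 11721 none and 62 are array controls. No columns were identical, and the number of arrays limits the precision.

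Of several probe sets of a gene, the one with the highest mean over all arrays stood for it. limma 3.58.1 in R 4.3.3 fitted group means and empirical Bayes moderation, with 1 model per set of shared controls, and Benjamini-Hochberg adjustment over 10806 to 11138 genes above log2 4 on at least 3 arrays. Figures and tables used Python 3.11.15, pandas 2.3.3 and numpy 2.4.6. Members, gene lists and named genes (all members, and the 3 genes of each list called in most groups, with ties, and the 5 most like CXCL8 and IL11) were chosen with earlier results of these data known. The fit of every probe set, the probe set with the highest maximum and the omission of 9 arrays were chosen after seeing the data.

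Residuals of equal replicate numbers correlated above 0.1 in every pair for Aa (lowest r 0.28), Nnm with Kbr (0.139) and CsA (0.534). Some pairs lay lower in Ota (r -0.0542 to 0.409), Fk with Ra (-0.176 to 0.760) and CdCl with Di (-0.274 to 0.160). The numbers were thus taken to pair the cultures in Aa, Nnm with Kbr, and CsA only, and pairing in the other sets is not excluded. The fitting code was tested on simulated data. Alternatives are given in the closing section.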

Additional observations from a re-analysis of the deposited data

Results flagged for a closer look

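In 12 cases the response to a compound differed between its times by limma's interaction test with Benjamini-Hochberg adjustment over all genes. Each value is the later treated minus control difference less the earlier one, in log2 units, with 3 arrays in each of 4 groups. With Aa high (48 against 24 h) it was 1.17 for CXCL8, 1.90 for CXCL2 and 1.14 for LIF, at adjusted p of 0.00176, 0.00182 and 0.0111. CXCL8 and CXCL2 were below their controls at 24 h in 3 of 3 arrays, and CXCL2 was above them at 48 h in 3 of 3. With Ota high (72 against 24 h) it was 3.79 for IL6 and 0.91 for LIF, at adjusted p of 0.0086 and 0.0285. IL6 was far higher in replicate 3 of Ota high 72 h than in the others, and without it these were 2.40 and 0.66, of which only IL6 was called.

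With CdCl (48 against 12 h) the value was -1.57 for CCL20, -0.96 for IL6 and -0.84 for CXCL2, at adjusted p of 6.23e-05, 0.00282 and 0.0151. The CdCl and Di controls of 48 h were themselves higher than those of 12 h for CCL20 (0.70) and CXCL2 (0.72) and lower for IL6 (-0.72). With Di it was 1.02 for CXCL8, 1.00 for LIF, -1.89 for CCL2 and -1.15 for CCL20, at adjusted p of 0.00227, 0.00175, 0.0105 and 0.000483. CCL20 was below all its controls at 48 h with Di and overlapped them at 12 h. No formal test for an outlying value was run within groups of 3 arrays.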

How the results depend on the processing

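Of 48 called changes 34 kept their call when each array was left out in turn, and 31 kept it in every setting tried. Called members per group moved as follows from the reported counts (Aa low 24 h 1, Aa low 48 h 2, Ota high 24 h 6, Ota low 72 h 1, Nnm high 24 h 2, Nnm high 48 h 2, Kbr high 48 h 1, Kbr low 48 h 1, CdCl 12 h 8, Di 12 h 2, Di 48 h 4, and 0 in the others named). With the filter at log2 6, Aa low 24 h and Ota low 72 h had 0. With no filter, Nnm high 24 h had 1, Kbr low 48 h 0 and Di 12 h 1. With the mean of all probe sets, Aa low 48 h, Nnm high 24 h and Di 12 h had 1 each. Without probe sets of the suffixes _x_at and _s_at, which leaves fewer members, Aa low 48 h had 1, Ota high 24 h 2, Nnm high 24 h 0, Kbr high 48 h 0, Kbr low 48 h 0, CdCl 12 h 5, Di 12 h 1 and Di 48 h 2, and the control time comparisons 3. With only the arrays of the comparison, Aa low 48 h had 1, Ota low 24 h 1, Ota low 72 h 2, Nnm high 24 h 0, Nnm high 48 h 0, Nnm low 24 h 1, Kbr high 24 h 1, Kbr low 48 h 4 and Di 12 h 0. Without the 9 arrays that stood apart, chosen after seeing the data, Nnm high 24 h and 48 h had 4 each, Nnm low 24 h and 48 h 2 each, Kbr high 48 h 2, Kbr low 48 h 4 and Ra 48 h 1. The cause of these moves was not tested, except where fewer members were read. Shares of all genes under these alternatives are not given, and whether the moves are particular to the members was not tested.

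With the replicate number as a block, Aa low 24 h had 3 called members, Aa low 48 h 4, Ota low 24 h 1, Nnm low 24 h 1, Kbr high 24 h 1, Kbr high 48 h 2, Kbr low 48 h 3 and Di 12 h 1. The time comparisons had 20 in place of 12 and the control time comparisons 9 in place of 5. Shares of all genes under the block are not given. The numbers were not taken to pair the cultures in Ota, Fk with Ra, or CdCl with Di, though pairing there is not excluded. The block changed no other call between treated and control groups than those named here and in the results, with CCL2 in Ota low 24 h (-0.90) gained and CXCL2 in Di 12 h (0.57) lost. In the sets not taken as paired the block added IL6 between the Ota doses at 24 h (1.82). It also added the time differences of CCL20 (2.45) and CCL2 (-0.95) in Ota high, CCL2 in Ota low (1.59) and CdCl (-1.40), and CXCL5 in Ota controls (-0.69).

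Leaving out 1 array gave 3 to 5 called members in Aa high 24 h, 4 to 5 in Aa high 48 h, 0 to 2 in Aa low 24 h, 1 to 3 in Aa low 48 h, 3 to 6 in Ota high 24 h, 5 to 7 in Ota high 72 h and 1 to 3 in Nnm high 24 h. It gave 0 to 4 in Nnm high 48 h, 0 to 1 in Nnm low 24 h, 0 to 2 in Nnm low 48 h, 1 to 2 in Kbr high 48 h, 0 to 2 in Kbr low 48 h, 7 to 8 in CdCl 12 h, 1 to 3 in Di 12 h and 4 to 5 in Di 48 h. Of the uncalled changes 19 were called without 1 array. In Aa these were CCL20 high 24 h (-1.94 without treated replicate 2, -1.91 without control replicate 1), CXCL8 high 48 h (0.38, control 3), CXCL2 low 24 h (-0.82, control 1), CCL20 low 48 h (-1.77, control 1), IL6 low 48 h (2.61, treated 1; 2.58, control 3) and CCL2 low 48 h (-2.25, treated 2). In Ota high 72 h CXCL8 was -0.98 and CXCL2 -1.43 without treated replicate 3. Without treated replicate 2, CCL2 was -2.67 in Nnm high 24 h and -3.55 in Nnm high 48 h, LIF 0.92 in Nnm high 48 h, CCL20 2.72 and CXCL3 1.49 in Nnm low 48 h, and CXCL5 0.77 and LIF -0.63 in Di 12 h. Without treated replicate 3, CXCL5 was -2.06 in Nnm low 24 h, CXCL2 1.60 in Kbr high 48 h and CCL20 2.87 in Kbr low 48 h, and without control replicate 3 CXCL3 was 0.67 in Di 48 h. The dose comparisons had 10 to 14, the time comparisons 11 to 15 and the control time comparisons 5 to 6.

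Among changes called in the reported fit or in the alternative, direction turned in 2 cases. CXCL8 in Di 12 h was 0.32 with the probe set of highest maximum, against -0.09, and CXCL2 in Di 12 h was -0.11 without the suffixed probe sets, against 0.57. Values near log2 2 to 3 are at background, so falls of CCL2 and rises of IL6 and IL11 are limited there.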
